A study of Homo sapiens with 10 samples.

Results

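The genes described here encode the machinery that starts transcription of protein-coding genes: Mediator, TFIID and other TAF proteins, RNA polymerase II and the general transcription factors. They were taken from the expression table by symbol: those beginning with MED or TAF and a digit, or with POLR2 or GTF2 and a further letter or digit. The rule used no measured value and found 43 of the 6914 genes with intact names: 18 Mediator subunits, 7 subunits of RNA polymerase II, 5 TFIID subunits, 8 general factor subunits and 5 genes with TAF names that belong to other complexes. The cells were HCT116, a human colorectal cancer line, in which YTHDF1, a cytoplasmic reader of N6-methyladenosine (m6A) in mRNA, had been knocked down with what the labels call shY1, against control cells whose hairpin targets GFP according to the column names. Ribosome profiling and mRNA-seq each had 2 knockdown libraries (labelled shY1-1 and shY1-2, which the labels do not define as different hairpins or as repeats) and 1 control library. YTHDF1-bound RNA (RIP) and its whole-cell lysate input came from control cells with 1 library each, and m6A-seq had 2 replicates. The labels list cycloheximide at 100 ug/ml for 3 min for all 10 samples.

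RNA polymerase II needs general factors to find and open a promoter. TFIID, built from the TATA-binding protein and TAF subunits, recognises the core promoter. TFIIA and TFIIB stabilise it and bridge it to the polymerase, while TFIIF, TFIIE and TFIIH complete the assembly and melt the DNA. Mediator relays signals from activators to this assembly through its tail, middle and head modules, and a separable kinase module holds CDK8 with MED12 and MED13. The expression table covers these complexes only in part. It holds 18 of 30 listed Mediator genes, 7 of 16 listed polymerase genes, 5 of 17 listed TFIID genes and 8 of 16 listed general factor genes. MED12, MED14, MED23, TAF1, TBP and GTF2I, which the rule for named genes had asked for, have no row in it, and their footprints and mRNA were not analysed here.

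The table gives a relative signal per gene in a unit it does not name, and its read depth is unknown. Fewer cells and less RNA per cell cannot be told apart in such bulk libraries. Its values summed to between 938928 and 1227324 per footprint library and between 339763 and 345044 per mRNA library. YTHDF1 stood at an mRNA value of 27.4 in the control, 8.62 in knockdown library 1 and 7.81 in knockdown library 2. Its footprint values were 61.4, 17.0 and 19.9, so both assays were lower in every knockdown library. These log2 changes, -1.62 in mRNA and -1.69 in footprints, did not pass in limma (adjusted p under 0.05). The test thus did not call even the gene that was knocked down. Of 8 epithelial markers 6 were in the table, with summed mRNA signals of 3403 to 5499, against 6.35 to 7.51 for the 3 of 7 fibroblast markers present. Of 5 blood cell markers only CD68 was present, at mRNA signals of 4.98 to 19.9 but footprint signals of 9485 to 15090. The part of the last value in any result was not tested. All 43 genes passed the filter on low values, and 40 lay at or above the lower quartile of mean level.

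No footprint change of the transcription machinery passed the test in this design. None of the 43 genes passed in limma (adjusted p under 0.05), where 0.0295% of all 6782 genes tested did. At an unadjusted p under 0.05 there were 3 genes, MED31, TAF1B and MED15, against 8.85% of all genes. Both knockdown libraries lay above the control for 11 of the 43 genes, or 25.6%, where the share over all genes was 17.5%. Both lay below it for 21 genes, or 48.8%, where the share over all genes was 51.2%. The median log2 change was -0.25 for the 43 genes and -0.28 for all genes, a difference of 0.03 that was not tested. The 2 medians were -0.08 and -0.19 in knockdown library 1, and -0.31 and -0.34 in knockdown library 2. The whole table was therefore shifted downward in footprints. After each library was centred on its own median, 18 genes lay above the control in both libraries and 11 below (41.9% and 25.6%, against 34% and 30.9% of all genes).

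**Figure D1:**
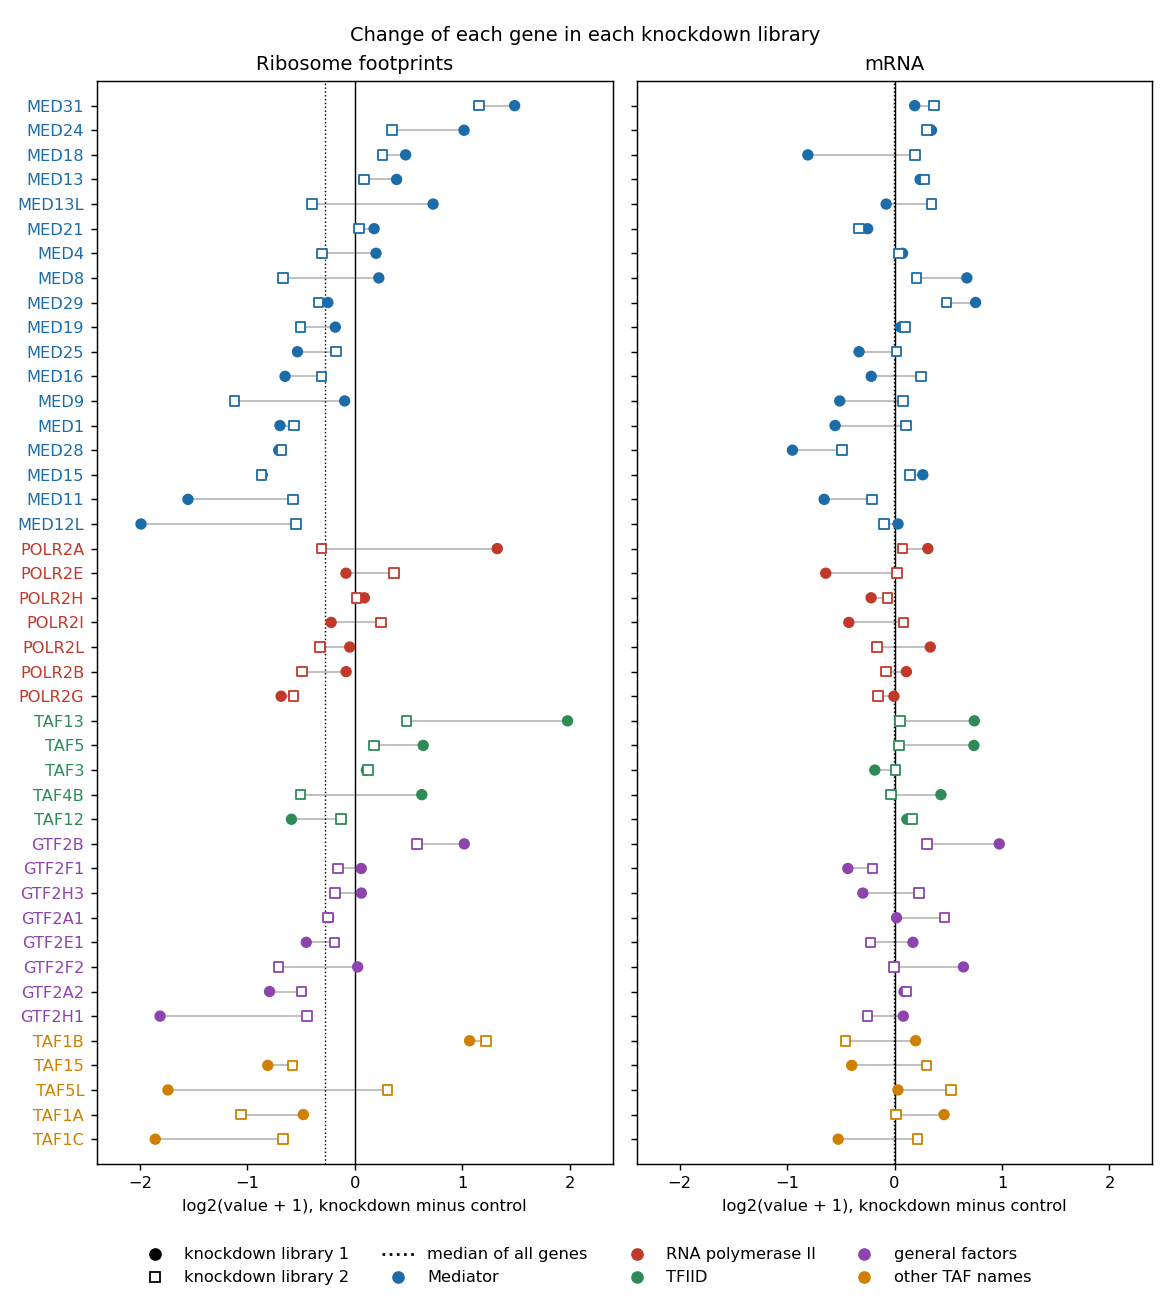
Log2(value + 1) of each knockdown library minus the control library for the 43 genes, for footprints (left) and mRNA (right), coloured by complex; circles are knockdown library 1, squares knockdown library 2, grey lines join both, and the dotted line is the median over all 6782 genes. Footprint pairs are often far apart, as for POLR2A and TAF5L, whereas the pairs of MED15, MED31 and TAF1B lie close together and away from 0.

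Among the Mediator genes the largest footprint difference on the higher side was that of MED31, a subunit of the middle module (chromosome 17, 6643311 to 6651605, GRCh38.p14). Its footprint values were 32.5 in the control, 93.1 in knockdown library 1 and 73.9 in knockdown library 2. Both knockdown libraries were more than double the control. In mRNA it stood at 11.2, 12.9 and 14.7 in the same order, with both knockdown libraries above the control by a smaller margin. The footprint change was 1.32 ± 0.38 on the log2(value + 1) scale (SE) and 1.60 after subtraction of the all-gene median, with limma adjusted p = 0.552. MED31 is also 1 of 3 genes here with no m6A peak in either replicate, and it is not in the RIP list.

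Footprints lay on the opposite side of the control for MED15, the tail subunit that is a contact for activators such as SREBP (chromosome 22, 20507610 to 20587619). Its footprint values were 128 in the control and 70.3 and 70.0 in the knockdown libraries, which nearly coincide. The mRNA signals were 36.1, 43.5 and 40.0, both knockdown libraries above the control. The footprint change was -0.86 ± 0.32 (SE) and -0.58 after subtraction of the all-gene median, with limma adjusted p = 0.552. Of the 6 tail subunits in the table, 5 had both footprint libraries below the control, namely MED15, MED16, MED25, MED28 and MED29, but after median centring only 2 of the 6 did. The exception was MED24, at 69.1 in the control, 141 in knockdown library 1 and 88.2 in knockdown library 2. The median of the tail was -0.42, or -0.14 relative to all genes, and none of its subunits passed.

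MED28, another tail subunit, had the lowest mRNA change of the 43 genes, and its footprints were low as well. Its transcript stood at 56.4 in the control, 28.7 in knockdown library 1 and 39.9 in knockdown library 2. Its footprint values were 147, 89.6 and 91.3. Both assays were below the control by similar amounts, with log2 changes of -0.72 ± 0.35 (SE) for mRNA and -0.69 ± 0.35 for footprints (limma adjusted p = 1.00 and 0.577). MED29 showed the reverse in mRNA, with 30.1 in the control and 51.4 and 42.4 in the knockdown libraries. Its footprints were 65.2, 54.6 and 51.5, so the assays lay on opposite sides of their controls.

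In the head module MED11 stood at footprint signals of 28.8 in the control, 9.15 in knockdown library 1 and 18.998 in knockdown library 2. For mRNA the signals were 12.3, 7.45 and 10.5. Both assays were below the control, and in each the lower value belonged to knockdown library 1. MED18 stood at footprint signals of 86.0, 120 and 103, with mRNA signals of 41.0, 23.0 and 46.9. Its mRNA libraries fell on either side of the control. MED8 had mRNA signals of 13.5, 22.1 and 15.7, above the control in both libraries, and footprints of 48.1, 56.4 and 29.9 on either side of it.

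In the middle module MED1, the contact for nuclear receptors, stood at footprint signals of 32.3 in the control, 19.6 in knockdown library 1 and 21.5 in knockdown library 2. Its mRNA stood at 13.5, 8.86 and 14.6. The footprints were below the control in both libraries by a log2 change of -0.63 ± 0.46 (SE), and the mRNA was lower in library 1 only. MED21 was at footprint signals of 71.6, 81.3 and 73.6 and mRNA signals of 71.6, 60.1 and 56.8. MED4, MED9 and MED19 had footprint changes of -0.05 ± 0.36, -0.61 ± 0.58 and -0.34 ± 0.39 (log2, SE), and none passed.

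The kinase module was represented by MED13, MED13L and MED12L. MED13, which links the kinase module to core Mediator, had footprint signals of 21.1 in the control, 28.01 in knockdown library 1 and 22.5 in knockdown library 2. In mRNA the gene was at 4.84, 5.88 and 6.09, so both assays were slightly above the control in every library, by 0.24 ± 0.44 for footprints and 0.26 ± 0.44 for mRNA (log2, SE). Its paralog MED13L had footprints of 13.5, 23.1 and 10.03, with the knockdown libraries on opposite sides of the control, and mRNA signals of 9.63, 9.08 and 12.5. MED12L, the paralog of MED12, was the lowest Mediator gene of the table, with footprints of 2.97 in the control, listed at 0 in knockdown library 1 and at 1.72 in knockdown library 2. Its mRNA signals of 0.917, 0.962 and 0.791 barely differed.

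RNA polymerase II subunits showed no common direction. POLR2A, the largest subunit, which carries the C-terminal heptad repeats (chromosome 17, 7484366 to 7514616), had footprint signals of 42.3 in the control, 108 in knockdown library 1 and 33.98 in knockdown library 2. A single knockdown library thus sets its mean change of 0.51 ± 0.64 (log2, SE), and without that library the change was -0.31. Its mRNA signals of 58.4, 72.6 and 61.6 were above the control in both libraries, by 0.19 ± 0.64. POLR2B, the second largest subunit, stood at footprint signals of 352, 333 and 250 and at mRNA signals of 43.1, 46.6 and 40.8. POLR2G, a subunit of the stalk, had the largest footprint difference on the lower side among them, at 220 in the control and 137 and 148 in the knockdown libraries. The mRNA of POLR2G was nearly level, at 54.9, 54.7 and 49.2, and its footprint change was -0.63 ± 0.31 (SE, limma adjusted p = 0.575).

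The remaining polymerase subunits had small mean changes, some of them between libraries that differed. POLR2E, POLR2H and POLR2L, which RNA polymerases I, II and III share, had footprint changes of 0.14, 0.05 and -0.19, and POLR2I had 0.01. Their mRNA changes were -0.31, -0.14, 0.09 and -0.17. POLR2E mRNA was at 132 in the control, 84.5 in knockdown library 1 and 135 in knockdown library 2. As a group the 7 polymerase genes had a median footprint change of 0.01, or 0.29 relative to all genes. After median centring 5 of the 7 lay above the control in both libraries, where 34% of all genes did. On the deposited scale 1 of the 7 did, where 17.5% of all genes did.

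In TFIID the footprints of TAF13, a histone-fold subunit, differed most. They were 33.5 in the control, 135 in knockdown library 1 and 47.1 in knockdown library 2, so that both libraries were higher but library 1 carried most of the difference. Its mRNA values were 20.0, 34.1 and 20.7. The changes were 1.23 ± 0.66 for footprints and 0.40 ± 0.66 for mRNA (log2, SE, limma adjusted p = 0.591 and 1.00). TAF12, the histone-fold partner of TAF4, had footprints of 117, 77.1 and 107 and mRNA signals of 21.0, 22.8 and 23.6. TAF5, the WD40 scaffold, had footprints of 4.08, 6.90 and 4.76 and mRNA signals of 2.43, 4.73 and 2.53. TAF3, at the low signals of 3.07, 3.38 and 3.44 in footprints and 0.807, 0.591 and 0.818 in mRNA, hardly differed. TAF4B stood at a footprint change of 0.06.

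The genes with TAF names outside TFIID included 3 subunits of SL1, the promoter recognition factor of RNA polymerase I, and these did not move together. TAF1B (chromosome 2, 9843442 to 9934416) had footprint signals of 74.6 in the control, 158 in knockdown library 1 and 175 in knockdown library 2, both more than double the control. Its mRNA values were 6.62, 7.73 and 4.56, on either side of the control. The footprint change was 1.15 ± 0.42 (SE) and 1.43 after subtraction of the all-gene median, with limma adjusted p = 0.552. TAF1C (chromosome 16, 84177855 to 84187057) stood on the other side, with footprints of 53.9, 14.2 and 33.6 and mRNA signals of 23.8, 16.2 and 27.7. TAF1A had footprints of 87.2, 62.3 and 41.3 and mRNA signals of 8.86, 12.6 and 8.96. The changes of TAF1C and TAF1A were -1.26 ± 0.60 and -0.77 ± 0.44 in footprints.

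The other 2 genes of this group were TAF5L, a subunit of the SAGA coactivator, and TAF15, an RNA-binding protein of the FET family. TAF5L had the widest split between knockdown libraries of the 43 genes, with footprints of 15.5 in the control, 3.94 in knockdown library 1 and 19.4 in knockdown library 2. Its mRNA stood at 11.3, 11.5 and 16.6. TAF15 had footprints of 726, 414 and 485 and mRNA signals of 341, 259 and 420. Its footprints were below the control in both libraries, while its mRNA was not.

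Among the general factors GTF2B, which encodes TFIIB, was the only gene higher in both assays and both libraries. Its footprint values were 52.3 in the control, 107 in knockdown library 1 and 78.6 in knockdown library 2. Its mRNA values were 34.6, 69.0 and 42.9, a similar pattern in which library 1 was about double the control. The changes were 0.80 ± 0.42 for footprints and 0.64 ± 0.42 for mRNA (log2, SE, limma adjusted p = 0.585 and 1.00). GTF2H1, the p62 subunit of TFIIH, had footprints of 22.0, 5.56 and 15.9 while its mRNA held at 25.3, 26.9 and 21.1. GTF2A2, the small subunit of TFIIA, had footprints of 616, 355 and 437 against mRNA of 74.1, 78.9 and 80.1. GTF2F1, the large subunit of TFIIF, was at mRNA signals of 67.0, 49.3 and 58.0, below the control in both libraries, and at footprints of 152, 159 and 137. Footprint changes of GTF2A1, GTF2E1, GTF2F2 and GTF2H3 lay between -0.34 and -0.06.

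**Figure D2:**
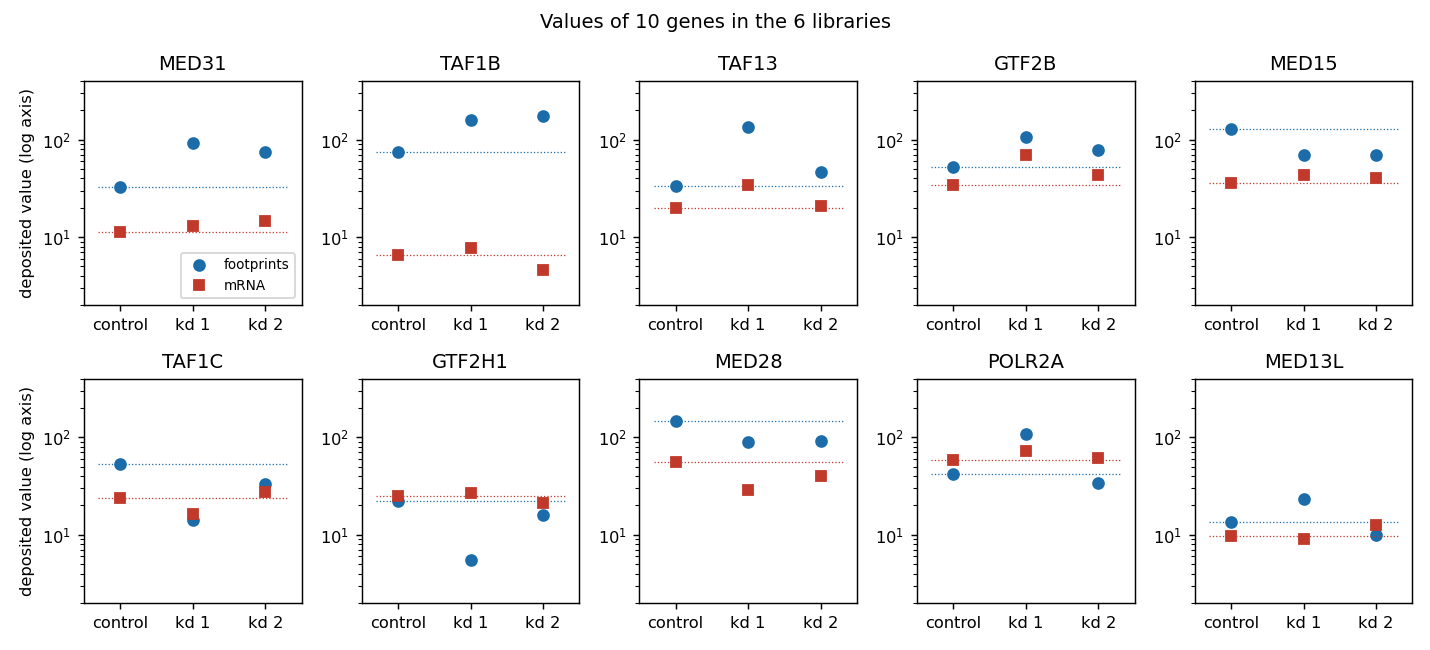
Deposited values of 10 genes in the control and both knockdown libraries (kd 1, kd 2), footprints as circles and mRNA as squares on a log axis, with dotted lines at each control value. Footprints of MED31 and TAF1B lie above their control in both libraries and those of MED15 and MED28 below, while POLR2A and MED13L have knockdown footprints on either side of the control.

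For mRNA as a whole, none of the 43 genes passed in limma (adjusted p under 0.05), as was the case for 0% of all genes, and none had an unadjusted p under 0.05, against 0.472% of all genes. Both knockdown libraries lay above the control for 17 genes (39.5%), where the share over all genes was 30.9%. Both lay below it for 6 genes (14.0%), where the share over all genes was 29.9%. The 6 were MED11, MED21, MED28, GTF2F1, POLR2G and POLR2H. Median changes were 0.02 for the 43 genes and -0.01 for all genes. With median centring the counts were 16 above and 8 below (37.2% and 18.6%, against 30.4% and 30.6% of all genes).

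Translational efficiency, the footprint change beyond the mRNA change, was tested as the interaction of assay and condition. None of the 43 genes passed in limma (adjusted p under 0.05), as for 0% of all genes, and none reached an unadjusted p under 0.05, against 2.73% of all genes. Efficiency was higher in both numbered pairs for 12 genes (27.9%, against 18.7% of all genes) and lower in both for 21 genes (48.8%, against 52%). With median centring 17 genes were higher and 14 lower (39.5% and 32.6%, against 34.6% and 33.1% of all genes). The median was -0.27 for the 43 genes and for all genes. Among genes at or above the lower quartile of mean level with both pairs on 1 side, TAF1B, MED31, TAF13 and MED18 had the largest differences on the higher side, at 1.27 ± 0.60, 1.05 ± 0.54, 0.83 ± 0.93 and 0.67 ± 0.66 (log2, SE). On the lower side TAF1C, MED15, GTF2H1 and TAF1A stood at -1.11 ± 0.85, -1.07 ± 0.45, -1.04 ± 0.88 and -1.01 ± 0.63. MED12L, below that level, had the lowest value of the 43 genes, -1.23 ± 1.02. TAF1A, TAF1B and TAF1C, which serve the same SL1 complex, thus stood on opposite sides, although none of their differences passed.

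Taking both assays together, 7 genes had footprints below and mRNA above the control in both libraries: GTF2A1, GTF2A2, MED15, MED19, MED29, TAF12 and TAF1A. They are 16.3% of the 43 genes, where 12.9% of all genes had this pattern. The reverse held for MED21 and POLR2H. Both assays were above the control in both libraries for GTF2B, MED13, MED24, MED31, TAF13 and TAF5 (14.0%, against 7.05% of all genes), and below it for MED11, MED28 and POLR2G (6.98%, against 17.6%). These are counts of sides around 1 control library and carry no test, and they depend on the scale. After median centring 2 of the 43 genes had footprints below and mRNA above the control (4.65%, against 7.7% of all genes), 5 had the reverse (11.6%, against 8.4%), 8 had both assays above (18.6%, against 12.4%) and 2 had both below (4.65%, against 11.8%).

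**Figure D3:**
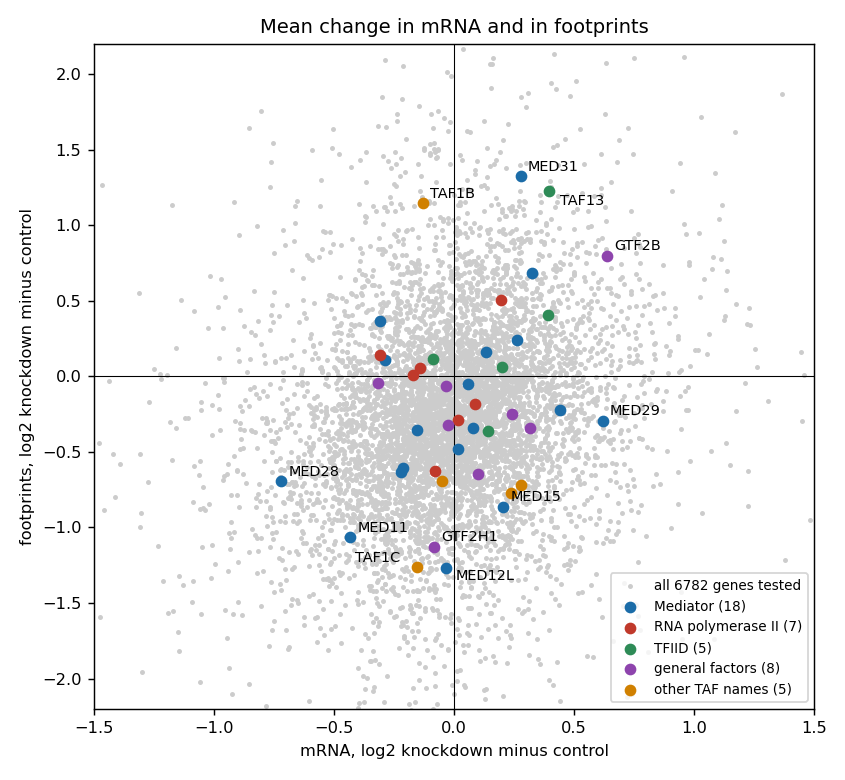
Mean log2 change of mRNA (horizontal) and footprints (vertical) after knockdown, with all 6782 genes tested in grey and the 43 genes coloured by complex; 117 genes lie outside the plotted range of 1.5 and 2.2 in either direction. The 43 genes lie within the cloud of all genes, with MED31, TAF13 and TAF1B at the top and TAF1C and MED12L at the bottom.

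In the control cells the ratio of footprints to mRNA of these genes was centred where that of all genes was, with median ratios of 2.34 and 2.32. The range was wide. POLR2L had a ratio of 27.0, at the 99.2 percentile of all genes tested, followed by GTF2H3 at 13.3, TAF1B at 11.3 and TAF1A at 9.84. POLR2I had the lowest ratio, 0.535 (10.7 percentile), with MED16 at 0.711 and POLR2A at 0.725. The largest and the second largest polymerase subunit therefore differed widely, since POLR2B stood at 8.15 (90.4 percentile) and POLR2A at the 15.9 percentile. These ratios rest on 1 library per assay.

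Genes that work with these complexes were taken from a list of 33 Mediator kinase, TBP, TFIIH, elongation and polymerase assembly genes, of which 21 were tested. None passed for footprints, mRNA or efficiency in limma (adjusted p under 0.05), and none had an unadjusted p under 0.05. Footprints were above the control in both libraries for 6 of the 21 and below for 10, where 17.5% and 51.2% of all genes were, and the median was -0.20, against -0.28 for all genes. The 3 named next were chosen after their values were seen. CDK8, the Mediator kinase, stood at mRNA signals of 19.5 in the control, 11.5 in knockdown library 1 and 8.82 in knockdown library 2, while its footprints were 27.6, 25.2 and 22.8. CTR9, a subunit of the PAF1 elongation complex, stood at mRNA signals of 8.23, 20.0 and 13.5 and footprints of 48.5, 83.5 and 53.4. MNAT1, the assembly factor of the TFIIH kinase CDK7, had footprints of 623, 460 and 444 against mRNA of 42.5, 49.4 and 69.5.

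m6A peaks were listed in both replicates for 35 of the 43 genes, or 81.4%, where 71.7% of all genes in the table had them. Peaks that overlapped between replicates by at least 1 base were found for 33 genes (76.7%, against 69.7% of all genes). By complex, both replicates held peaks for all 7 polymerase genes and all 8 general factor genes, 13 of 18 Mediator genes, 4 of 5 TFIID genes and 3 of the 5 other TAF genes. MED11, MED12L and MED31 had none in either list, and MED4, MED21, TAF12, TAF1A and TAF1B had peaks in 1 replicate only. In all, 105 peaks of replicate 1 and 111 of replicate 2 fell in these genes. Their median ratio of immunoprecipitate to input was 6.23 and 6.52 in the authors' lists, where all peaks had 5.63 and 5.53. In the 23 peak pairs with identical windows the input value was identical as well, so the replicates do not have separate inputs there.

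MED13 and MED13L carried by far the most peaks. MED13 had 15 in replicate 1 and 14 in replicate 2, and MED13L had 14 and 17, where no other of these genes had more than 7 and 6. In the lists of all genes MED13 ranked 11 and 19 and MED13L 19 and 5 by number of peaks. Transcript length is not in the files, and its part in these counts was not tested. TAF1C followed with 7 and 4 peaks, TAF3 with 4 and 6, TAF5L with 5 and 4, and MED1 with 3 and 5. Only 1 of the MED1 peaks overlapped between replicates, compared with all 4 of those of POLR2A.

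Each peak is listed with the position of a 5-base motif along an unnamed transcript, drawn from 12 such motifs. The sequences below are such motifs from overlapping peaks with the same position in both replicates. They are shown because they mark listed methylation sites in the paralogs with the most peaks and in the largest polymerase subunit. Every such site of POLR2A is shown, but only a part of the 11 of MED13 and the 10 of MED13L. Sites left out include MED13 position 586, with ratios of 19.1 and 12.6, and position 940, with 4.54 and 3.11. Position 4226 of POLR2A lies outside the window of its peak, which runs from 4275 to 4400 in both replicates. The capital A is the adenosine at the centre of the motif.
MED13L, position 221: gaAct
MED13L, position 6898: gaAcc
MED13L, position 1745: agAct
MED13, position 2904: ggAct
MED13, position 3152: ggAcc
MED13, position 1611: gaAct
POLR2A, position 897: gaAca
POLR2A, position 1475: ggAct
POLR2A, position 1625: gaAca
POLR2A, position 4226: ggAca

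The MED13L peak with gaAct at position 221 had the highest ratios of these genes, 76.2 in replicate 1 and 144 in replicate 2. Both ratios were over the same low input signal of 10.7. MED13L had further sites among those shown. Its peak with gaAcc at position 6898 had ratios of 26.6 and 36.3, and that with agAct at position 1745 had 9.49 and 15.5. In MED13 the ratios were 38.8 and 14.6 at the ggAct of position 2904, 17.1 and 13.0 at the ggAcc of position 3152, and 14.3 and 10.7 at the gaAct of position 1611. In POLR2A the ratios of the 4 sites, in the order shown, were 4.25, 13.6, 18.3 and 3.37 in replicate 1 and 5.14, 12.8, 18.0 and 4.03 in replicate 2. The POLR2A ratios thus had the same order in both replicates. Their input signals were identical, however, at positions 1625 (13.8) and 4226 (203), so this order is not a separate check by each replicate. The immunoprecipitate signals were 259 and 252 at positions 1475 and 1625 in replicate 1, but 170 and 248 in replicate 2. The ratio at position 2904 of MED13 differed widely between replicates.

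High ratios were also listed at sites of other genes. GTF2H1 had 1 overlapping peak with aaAca at position 2423 and ratios of 26.8 and 26.6. TAF13 had agAcc at position 72, close to the start of the listed transcript, with ratios of 23.0 and 23.2. GTF2A1 had aaAct at position 1621 with ratios of 24.8 and 27.7, and TAF1C had aaAct at position 2871 with 26.6 and 27.6. The input signal was the same in both replicates for these peaks of TAF13 (105), GTF2A1 (77.7) and TAF1C (14.0, a low value). Of the 82 overlapping pairs of peaks, 64 had the same position and motif in both replicates, and the median difference in ratio was 0.27 on the log2 scale. The motif ggAca was listed for 19% of peaks in these genes in replicate 1 and 16.2% in replicate 2, against 11.5% and 11% of all peaks. The motif aaAct was listed for 12.4% and 12.6%, against 6.67% and 7.07%, and agAct for 2.86% and 1.80%, against 7.95% and 7.62%. Peaks of 1 gene share a transcript, so these shares are descriptions.

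**Figure D4:**
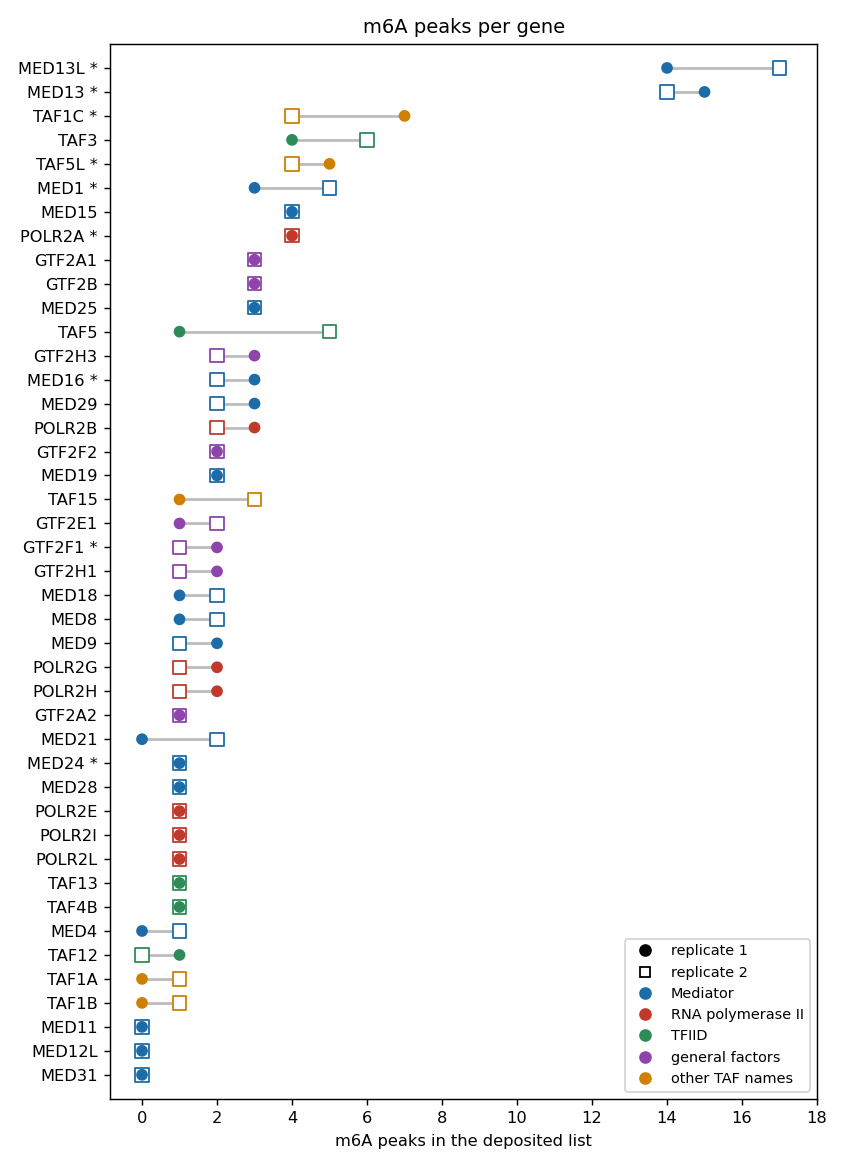
Number of m6A peaks listed per gene in replicate 1 (circles) and replicate 2 (squares), coloured by complex, with an asterisk for genes in the YTHDF1 RIP list. MED13 and MED13L have 14 to 17 peaks per replicate, and MED11, MED12L and MED31 have 0.

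The RIP list shows genes whose FPKM in the YTHDF1 immunoprecipitate is at least 1.5 times that in the input. It held 9 of the 43 genes, or 20.9%, where 35.3% of all genes in the table were listed. All 9 also had m6A peaks in both replicates (20.9% of the 43, against 31.4% of all genes). Over all genes in the table, 2172 of the 2438 listed genes had such peaks. The 9 were 5 Mediator genes, 1 polymerase gene, 1 general factor gene and 2 other TAF genes, and no TFIID gene. A gene outside the list may have had a lower ratio or an input under the list's lowest value of 1.00 FPKM, and these cannot be told apart. With 1 immunoprecipitate and 1 input there is no replicate check.

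MED13L and MED13 had the highest ratios, 8.24 and 6.73, at ranks 34 and 72 of the 3931 listed genes. MED13L stood at 23.6 FPKM in the immunoprecipitate and 2.87 in the input, and MED13 at 14.0 and 2.07, so both inputs were low. TAF5L followed with a ratio of 4.35 (27.1 against 6.22 FPKM). MED1, TAF1C and POLR2A had ratios of 2.63, 2.58 and 2.38, near the list's median of 2.28, and POLR2A rests on higher values of 153 and 64.1 FPKM. MED16, GTF2F1 and MED24 had 2.05, 1.89 and 1.70. The 2 genes with the most m6A peaks were therefore also the 2 with the highest RIP ratios, as the deposited values stand. Below them the orders differed: TAF1C, next by peaks, had a ratio of 2.58, and TAF3, which followed, was not in the list.

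**Figure D5:**
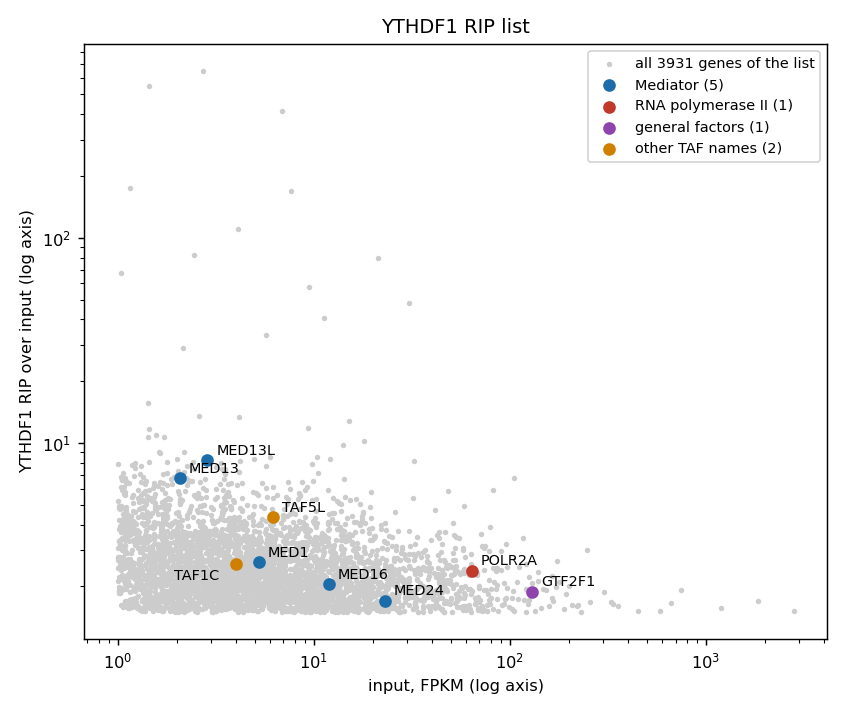
Deposited ratio of YTHDF1 RIP over input against input FPKM, both on log axes, with all 3931 listed genes in grey and the 9 genes described here coloured by complex. MED13L and MED13 stand at 8.24 and 6.73 at low input, and POLR2A and GTF2F1 at 2.38 and 1.89 at high input.

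Knockdown changes were also set out by RIP and m6A status. The 9 genes in the RIP list had median changes of -0.05 in footprints, 0.13 in mRNA and -0.02 in efficiency, and the 34 others had -0.27, -0.0048 and -0.28. Over all genes tested the corresponding values were -0.31, -0.02 and -0.29 in the list and -0.27, 0.0001 and -0.26 outside it. The 35 genes with peaks in both replicates had median footprint and efficiency changes of -0.25 and -0.27, and the 8 others had -0.21 and -0.30. No test was made of these medians. MED13 and MED13L, with the most peaks and the highest RIP ratios, had efficiency changes of -0.02 ± 0.62 and 0.03 ± 0.83 (log2, SE). Errors of this size cover changes in either direction.

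Genes with the same name prefixes but no row in the expression table appeared in the other lists as well. The RIP list held 9 of them, with TAF1 at a ratio of 6.32 (21.0 against 3.32 FPKM), MED12 at 3.67, TAF2 at 2.71 and GTF2I at 2.18. TAF1, the largest TFIID subunit, had 8 and 9 m6A peaks, TAF2 had 7 and 6, and MED12 had 4 and 6. MED14, the Mediator backbone, had 3 and 4 and was not in the RIP list.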

How the data were processed

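STAR and GRCh38 are named in the submitters' processing notes (versions and the m6A peak caller: not given in the sources used here). In the expression table the authors deposited 1 signal per gene and library in an unnamed unit, with a lowest control value of 0.500 for footprints and 0.501 for mRNA. They deposited FPKM values for RIP and input with their ratio, and for m6A peaks the signal in immunoprecipitate and input with a ratio.

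Of 6926 rows 12 had damaged names and were left out. Values were analysed as log2(value + 1), and 6782 genes whose mean log2(value + 1) reached 1 were fitted in limma 3.58.1 (R 4.3.3), with a trend, 1 mean per assay and condition and 2 residual degrees of freedom. Each assay has a single control, taken to be as variable as the knockdown pairs. Footprints and mRNA share 1 estimate of the spread per gene, so both changes of a gene have the same SE. The median SD of a knockdown pair was 0.35 for footprints and 0.22 for mRNA (log2). The shared SE is thus not the error of either assay alone. Tests were 2-sided with Benjamini-Hochberg adjustment, and the script was tested on simulated data. Nothing says that libraries came from separate cultures, so p-values measure only the spread between these libraries, which may be technical. The genes and lists were chosen with earlier results of these data known. Named genes were a fixed set, the 4 largest rises and falls per contrast (genes under the lower quartile of mean level left out, both libraries on 1 side of the control), and the 6 with the highest RIP ratio or most peaks. MED12L, MED24, POLR2E, POLR2G, TAF5, TAF12, TAF15 and GTF2A2, and the GTF2A1 site, were named after their values were seen. So were POLR2L, GTF2H3, POLR2I and MED16 for their control ratios. Alternatives were other pseudocounts, filters, scalings and thresholds and leaving out each knockdown library. Gene positions are from RefSeq (GRCh38.p14), in which all 43 genes were found.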

Additional observations from a re-analysis of the deposited data

How the results depend on the processing

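None of the 43 genes passed in limma for footprints, mRNA or efficiency under any alternative tried: pseudocounts of 0.1 and 5, no filter or a mean log2(value + 1) of at least 3 (40 genes left), median centring, quantile normalisation, each assay alone (not for efficiency), a replicate block, and leaving out each knockdown library. The smallest adjusted p of these genes in footprints ranged from 0.0885 to 0.944. With the replicate block 0 genes passed in each contrast, and 12 against 3 had an unadjusted p under 0.05 in footprints, where 1232 against 600 of all genes did; 30 against 2 of all genes passed. Knockdown libraries of the same number deviated together (r = 0.37 across genes), but the labels, which give both assays the same numbers, do not say what a number shares. The median footprint change of -0.25 became 0.0431 with median centring and -0.0084 with quantile normalisation, and the median efficiency change of -0.27 became 0.0086 and -0.0523. Without a knockdown library the medians ranged from -0.31 to -0.0817 for footprints, from 0.0153 to 0.0755 for mRNA and from -0.32 to -0.0956 for efficiency. The highest footprint and efficiency values were without footprint library 2. The median mRNA change was 0.0373 with the filter at a mean of 3. In the RIP list 3 of the 43 genes and 626 of all 6914 remained at a ratio of at least 3, and 13 of the 43 and 1686 of all 6914 had m6A peaks of a ratio of at least 10 in both replicates.

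Of the named genes the following changed sign. POLR2B footprints stood at 0.0027 with median centring. MED13 efficiency stood at 0.0457 with a pseudocount of 5, 0.26 with median centring and 0.26 with quantile normalisation, and YTHDF1 efficiency at 0.22 and 0.17 with the last 2. Without a knockdown library POLR2A ranged from -0.31 to 1.33 in footprints and from -0.50 to 1.13 in efficiency, MED1 mRNA from -0.55 to 0.11, POLR2B mRNA from -0.0798 to 0.11, GTF2B efficiency from -0.18 to 0.50, MED13 efficiency from -0.17 to 0.13 and YTHDF1 efficiency from -0.17 to 0.0483. The causes were not tested. Controls, 1 library each, could not be left out, and depth is unknown.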
